A study of Mus musculus with 8 samples.

Results

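The receptors described here are 54 odorant receptor (OR) genes of mouse chromosome 19, measured in olfactory mucosa. In the knockouts both Lhx2 alleles could be deleted in mature olfactory sensory neurons (OSNs), and in the controls at most 1. They were chosen by name: every transcript cluster of the array with 1 OR symbol numbered from Olfr1417 to Olfr1506, except Olfr1462 and Olfr1465. That rule gave 54 of the 1023 OR clusters with 1 symbol and of the 21789 clusters with 1 gene symbol in all. The RefSeq gene table placed all 54 on chromosome 19, where it lists 91 OR genes including pseudogenes, 63 of them protein-coding. Olfr1462 and Olfr1465 were set aside because the study had listed them as higher in the same mice, so leaving them out used the readout, and their values are given with the receptors they lie between.

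Messenger RNA abundance was measured in olfactory mucosae of mice 26 days old, 1 Affymetrix Mouse Gene 1.0 ST array a mouse, on a mixed 129 x C57BL/6J background. The 4 knockouts were OmpCre:Lhx2(fl/fl), in which both Lhx2 alleles carry loxP sites around part of the gene and Cre recombinase is expressed from the Omp locus. Of the 4 littermate controls, controls 2, 3 and 4 were OmpCre:Lhx2(fl/+) and control 1 was Lhx2(fl/+) without Cre. Every mouse therefore carried at least 1 floxed allele, and in all but control 1 Cre also occupied an Omp allele. In controls 2, 3 and 4, Cre could delete 1 Lhx2 allele, so only control 1 was without any deletion. Omp is active in mature OSNs, so Cre is not targeted to immature OSNs or non-neuronal cells, and a Cre reporter line in the study marked only a part of the mature OSNs. Mouse numbers in the labels begin with 5 (knockouts 1 and 2, controls 1 and 2), 7 (knockout 3, control 3) or 9 (knockout 4, control 4), and differences within these 3 title series are given beside the main ones. The labels do not say what a series is.

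ORs are G protein-coupled receptors that bind odorants in the cilia of OSNs. Each mature OSN transcribes 1 allele of 1 OR gene, and OR genes lie in clusters along the chromosomes, where neighbours are often recent copies of one another. Lhx2 is a LIM-homeodomain transcription factor, and homeodomain motifs with the core TAAT and O/E motifs, which Ebf factors bind, are characteristic of OR gene promoters.

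Sequences of some of these receptors are shown first, because members with nearly the same sequence can be compared in their response. RefSeq promoter windows (mouse build GRCm38.p6) were found for 52 of the 54 members, all but Olfr1454 and Olfr1469. In 45 of them the gene model begins with ATG, so the window ends with the first 50 bases of coding sequence. Among those coding starts, 11 pairs of members agreed in at least 47 of 50 bases, each pair within 1 receptor family. Bases were compared position by position from the ATG, without alignment. Over all pairs of the 23 coding starts of MOR202, the largest family, the median identity by that count was 34% and the lowest 22%. Such a count drops when 1 start is shifted against the other. It therefore does not measure how alike the receptors are, and similar pairs that are shifted can be missing from the 11. Shown here are 3 of these pairs, chosen because their changes in the knockouts differed, with capitals where the 2 members of a pair differ.
Olfr1463: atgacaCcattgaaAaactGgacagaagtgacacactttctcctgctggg
Olfr1466: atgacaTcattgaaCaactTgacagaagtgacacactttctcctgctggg
Olfr1472: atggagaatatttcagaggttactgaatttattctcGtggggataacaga
Olfr1475: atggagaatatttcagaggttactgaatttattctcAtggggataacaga
Olfr1501: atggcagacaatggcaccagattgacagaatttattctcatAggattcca
Olfr1504: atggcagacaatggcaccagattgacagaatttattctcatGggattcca
All 6 are on chromosome 19: Olfr1463 (chr19:13234252-13234301, plus strand), Olfr1466 (chr19:13341760-13341809, plus strand), Olfr1472 (chr19:13454466-13454515, minus strand), Olfr1475 (chr19:13480147-13480196, minus strand), Olfr1501 (chr19:13839122-13839171, minus strand) and Olfr1504 (chr19:13888159-13888208, minus strand). Probes for receptors this alike can detect more than 1 of them, so single values carry that uncertainty, and it was not tested which probes do.

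The remaining 7 windows have a modelled start that is not an ATG. Printed here are the 250 bases before the start for 3 of them, the pair with the largest decreases (Olfr1426 and Olfr1496) and the smallest (Olfr1434), with capitals at each match to TAATNA on either strand, the core homeodomain motif.
Olfr1426: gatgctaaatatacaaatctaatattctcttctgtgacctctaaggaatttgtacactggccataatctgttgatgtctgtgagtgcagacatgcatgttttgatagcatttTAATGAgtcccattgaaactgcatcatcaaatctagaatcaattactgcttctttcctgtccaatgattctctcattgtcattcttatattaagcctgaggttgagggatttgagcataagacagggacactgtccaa
Olfr1496: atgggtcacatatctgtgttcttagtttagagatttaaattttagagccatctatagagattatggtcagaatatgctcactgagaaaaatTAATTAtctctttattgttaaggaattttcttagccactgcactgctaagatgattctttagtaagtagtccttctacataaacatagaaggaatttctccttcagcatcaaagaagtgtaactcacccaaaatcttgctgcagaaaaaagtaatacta
Olfr1434: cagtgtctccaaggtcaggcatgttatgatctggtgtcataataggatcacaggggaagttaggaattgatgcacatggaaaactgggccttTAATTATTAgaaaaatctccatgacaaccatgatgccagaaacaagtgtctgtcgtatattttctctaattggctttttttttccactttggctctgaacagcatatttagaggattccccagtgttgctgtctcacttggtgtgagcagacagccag
The windows are at chr19:12091848-12092097, minus strand, chr19:13780298-13780547, plus strand, and chr19:12279604-12279853, plus strand, all of GRCm38.p6. Olfr1426 has 1 match, which begins 138 bases before the start. Olfr1496 has 1 match, 159 bases before the start, and it is TAATTA. Olfr1434 has 2 overlapping matches, the first 158 bases before the start and also TAATTA. Their log2 differences between knockouts and controls were -1.76, -1.74 and -0.66, so a window with TAATTA lay beside both a large and a small decrease.

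Most of the chromosome 19 receptors were less abundant in OmpCre:Lhx2(fl/fl) mice. Of the 54, 48 (88.9%) were called lower by limma at an adjusted p under 0.05, none was called higher, and 6 were not called (Olfr1436, Olfr1441, Olfr1453, Olfr1457, Olfr1502 and Olfr1505). Over all 23410 clusters tested, 6.29% were called lower and 2.1% higher at that adjusted threshold. At an unadjusted p under 0.05, limma gave 49 lower and 0 higher of the 54. Of all 23410 clusters, 2076 were lower and 2176 higher at that unadjusted threshold. By the methods' t-test, at its stricter threshold of an unadjusted p under 0.01 and a false discovery rate under 1%, 36 of the 54 were called lower and 0 higher, against 3.38% of all clusters lower. With Olfr1462 and Olfr1465 added, the count was 48 of 56. The median log2 difference between knockouts and controls was -1.25 (the median receptor decreased by 58.1%), with quartiles of -1.44 and -0.93. Over all clusters tested the median difference was 0.05. In 49 receptors all 4 knockouts lay below all 4 controls, which was true of 7.83% of all clusters tested. These 49 are the 48 called receptors and Olfr1505. In these bulk values, fewer OSNs expressing a receptor and less mRNA per expressing OSN cannot be told apart. By in situ hybridization, the study reported fewer labelled OSNs for the decreased ORs that it probed in this strain.

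The receptors went down by similar amounts in every mouse. Their mean log2 value was 7.75, 7.64, 7.68 and 7.81 in controls 1 to 4 and 6.58, 6.62, 6.61 and 6.50 in knockouts 1 to 4. The groups did not overlap, and control 1, the mouse without Cre, lay within the range of the other controls. The mean difference was -1.14, or 54.7% lower, against SDs of 0.07 among controls and 0.05 among knockouts (n = 4 each). Within title series 5, 7 and 9 the difference was -1.09, -1.08 and -1.30. Of the 54 receptors, 52 were below the controls in all 3 series, the exceptions being Olfr1436 and Olfr1457. The same held for 874 of the 969 other OR clusters and for 3549 of all 23410 clusters tested.

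**Figure D1:**
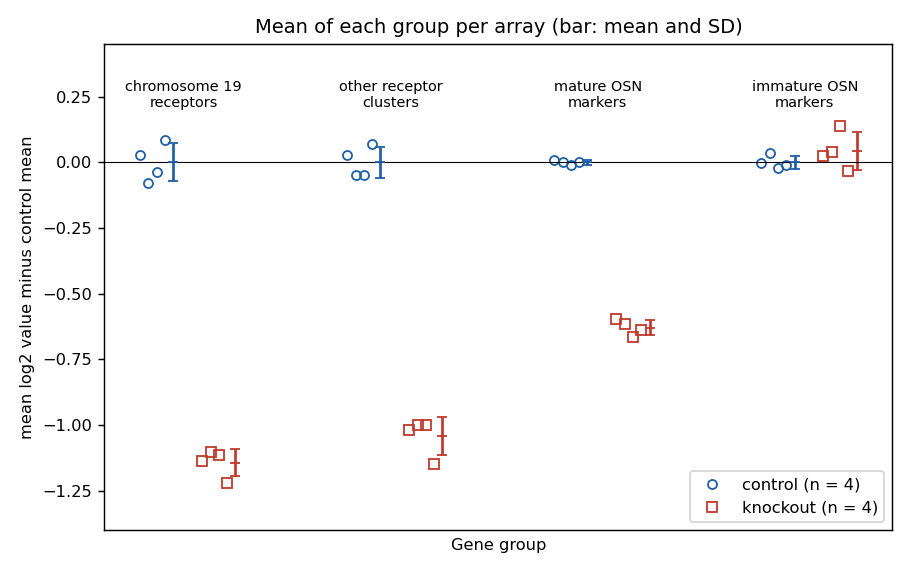
Mean log2 value per array of 4 groups of clusters, each set to its mean over the 4 controls (vertical axis, log2 units), with blue circles for controls, red squares for knockouts and bars for the mean and SD. In knockouts the mean of the 54 chromosome 19 receptors was at -1.14, that of the other 969 receptor clusters at -1.04 that of the 16 mature OSN markers at -0.63 and that of the 12 immature OSN markers at 0.04.

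Mature OSN markers also went down in these mice, and their part in the receptors' decrease was not tested. The list held 17 genes, of which 16 were measured, and all 16 were called lower, with a median log2 difference of -0.49. The mean of the 16 ran from 12.35 to 12.37 in controls and from 11.70 to 11.77 in knockouts, a difference of -0.63 or 35.3% lower. Omp, the olfactory marker protein and the locus that carries Cre, was at 13.78, 13.56, 13.22 and 13.27 in controls and 12.88, 12.80, 12.37 and 12.43 in knockouts, a difference of -0.84 (adjusted p = 0.00568). The highest of the 8 values was that of control 1, whose Omp alleles carry no Cre. In controls and in knockouts alike, Omp was higher in title series 5 than in series 7 and 9. For control 1, the lack of Cre and the series cannot be told apart. Lhx2 was at 12.39, 12.33, 12.29 and 12.33 in controls and 12.03, 11.99, 12.17 and 12.16 in knockouts, a difference of -0.25 (limma adjusted p = 0.0383). That call was lost when any single mouse other than knockout 3 was left out, with adjusted p from 0.0566 to 0.130. Its cluster combines probes over the gene, so it also reads exons outside the floxed part. Markers of other cell types showed few calls: 1 lower (Stmn4) and 1 higher (Tubb3) of 12 for immature OSNs, 0 of 8 for sustentacular cells, 1 lower of 7 (Foxj1) for respiratory epithelium and 0 of 6 for macrophages.

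On average, the decrease of the receptors was larger than that of the mature OSN markers. Single markers varied, with differences from -0.21 (Gnal) to -2.02 (Cnga4), and Cnga4 weighs on their mean. Marker signals were also far higher than those of the receptors, and the part of signal level was not tested. With each array centred on the mean of those markers, the mean difference of the 54 receptors was -0.51. The controls and knockouts did not overlap on this scale, and within title series 5, 7 and 9 it was -0.48, -0.43 and -0.66. On this scale 40 receptors were called lower, against 3.19% of all clusters tested, and the median difference was -0.63. Another 6 were called higher (Olfr1436, Olfr1441, Olfr1453, Olfr1457, Olfr1475 and Olfr1502), where 93.7% of all clusters tested were also called higher, since this centring raised the median of all clusters to 0.68. The study rescaled to a larger set of mRNAs with a smaller decrease, so these values differ from its correction.

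The rest of the OR family gave values in the same range. Among the 969 other OR clusters, 805 (83.1%) were called lower and the median log2 difference was -1.03, with quartiles of -1.41 and -0.66. The mean over those clusters went from 8.15 to 7.11, a difference of -1.04, against -1.14 for chromosome 19. Of the 50 largest decreases among all 1023 OR clusters, 1 was on this list of 54 (Olfr1463, at rank 20). The next were Olfr1501 at rank 76, Olfr1428 at rank 84 and Olfr1427 at rank 85. Whether the chromosome 19 receptors differ from other ORs was not tested.

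Along the chromosome, receptors fell in every stretch and none of the other genes between them was called. In RefSeq gene order, protein-coding genes other than ORs divide the members into 4 stretches. All 4 members from Olfr1417 to Olfr1420 were called lower (median -1.29), 8 of 10 from Olfr1423 to Olfr1441 (median -1.12), both of Olfr1442 and Olfr1443 (median -1.43), and 34 of 38 from Olfr1444 to Olfr1505 (median -1.29). Inside the cluster lie 12 other protein-coding genes, and the 5 nearest on each side were added. Of these 22 genes 20 were measured, all but Cntf and Zfp91. None was called by limma, 2 had an unadjusted p under 0.05 (Lpxn and Tle4), and the controls and knockouts overlapped in all 20. Over all 23410 clusters tested, 8.39% were called in either direction. At an unadjusted p under 0.05, 2076 of them were lower and 2176 higher. The groups did not overlap in 1833 lower and 1503 higher clusters. Whether the 20 genes differ from clusters in general was not tested. The differences of the 20 genes ran from -0.11 to 0.27 with a median of 0.07. Osbp, which encodes an oxysterol-binding protein and sits between Olfr1420 and Olfr1423, was at 11.83, 11.80, 11.64 and 11.70 in controls and 11.80, 11.66, 11.54 and 11.63 in knockouts. Cep78, which encodes a centrosomal protein and lies beyond Olfr1505, differed by 0.06 ± 0.08 (SE). Tle4, the first gene beyond Olfr1505 and a transcriptional corepressor, had the largest difference, 0.27 ± 0.08 with an adjusted p of 0.0894. Apart from centring on the mature OSN markers, which made all 20 genes higher, it was called higher under 4 other settings, among them array median centring (0.33, adjusted p = 0.0257) and leaving out knockout 3 (0.34, adjusted p = 0.0161).

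**Figure D2:**
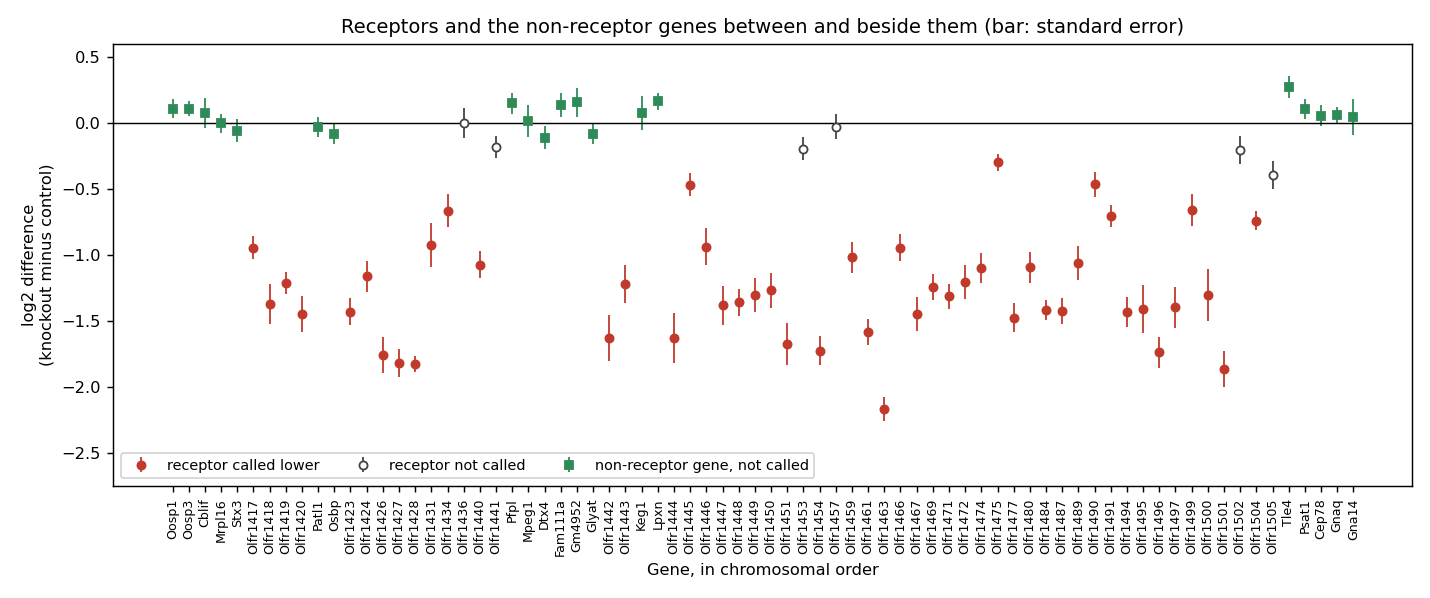
Log2 difference, knockout minus control, of the 54 receptors and the 20 measured non-receptor genes in chromosomal order (horizontal axis), with bars for the standard error over 4 mice a group. Receptors called lower (filled red) ran from -0.30 to -2.17, the 6 not called (open) from -0.00045 to -0.39, and the non-receptor genes (green squares) stayed between -0.11 and 0.27.

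Neighbouring receptors often differed in their decrease. Adjacent members differed in their log2 difference by a median of 0.43 over 53 adjacent pairs, against 0.47 over all 1431 pairs and 0.38 over the 429 pairs of the same family. Olfr1417, the first member, was at 7.63, 7.53, 7.49 and 7.50 in controls and 6.38, 6.53, 6.79 and 6.68 in knockouts, a difference of -0.94. Olfr1505, the last, ran from 6.81 to 7.09 in controls, with a mean of 6.94, and was at 6.38, 6.38, 6.69 and 6.76 in knockouts. Its groups did not overlap, but the difference of -0.39 ± 0.11 (SE) had an adjusted p of 0.0517, just outside the threshold.

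The largest decrease was that of Olfr1463. It was at 10.72, 10.49, 10.43 and 10.64 in controls and at 8.47, 8.54, 8.40 and 8.20 in knockouts, a log2 difference of -2.17 ± 0.09 (SE, adjusted p = 9.65e-07) or 77.7% lower. The lowest control stood well above the highest knockout, and the 3 title series gave -2.10, -2.03 and -2.44. Olfr1463 also had the highest signal of all 54 in the controls, although signals of different clusters depend on their probes and do not rank mRNA levels.

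Next came Olfr1501 of family MOR212. Its controls were at 8.59, 8.39, 8.37 and 8.45 and its knockouts at 6.85, 6.86, 6.29 and 6.35, a difference of -1.86 ± 0.14. Knockouts 3 and 4 were below knockouts 1 and 2, and all were below every control. Olfr1500, of the same family, was the least even of the members, at 8.11 to 8.22 in controls and at 6.64, 7.08, 7.41 and 6.32 in knockouts. Its difference of -1.31 carried an SE of 0.20, the largest of the 54, against a median SE of 0.11.

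Olfr1426, Olfr1427 and Olfr1428 are neighbours of family MOR239 and were all among the largest decreases. Olfr1428 was at 9.30, 9.41, 9.22 and 9.38 in controls and 7.47, 7.53, 7.50 and 7.52 in knockouts, a difference of -1.82 ± 0.06 (adjusted p = 5.68e-07), with the smallest SE of any member. Its 4 knockouts were nearly alike. Olfr1427 was at 9.74, 9.36, 9.75 and 9.71 in controls and 7.95, 7.82, 7.88 and 7.63 in knockouts. Its difference was -1.82 ± 0.10. Olfr1426, whose upstream sequence is printed above, was at 8.30, 8.37, 8.12 and 7.91 in controls and 6.71, 6.54, 6.21 and 6.22 in knockouts, a difference of -1.76 ± 0.14. In each of the 3 receptors the groups were clearly apart.

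The other large decreases were spread over the cluster. Olfr1496, the only member of family MOR127, was at 8.01, 7.92, 7.79 and 8.21 in controls and 6.27, 6.37, 6.39 and 5.96 in knockouts, a difference of -1.74 ± 0.12. Olfr1454 was at 8.33, 8.29, 8.12 and 8.43 in controls and 6.75, 6.74, 6.34 and 6.44 in knockouts, a difference of -1.73 ± 0.11. Both lost about the same share of their signal, 70.0% and 69.8%. Olfr1451 was at 8.65, 8.03, 8.55 and 8.63 in controls, where control 2 stood low, and at 6.60, 6.63, 7.15 and 6.80 in knockouts, a difference of -1.67 ± 0.16. Olfr1471, with 1 of the 3 highest signals in controls, was at 9.67, 9.67, 9.50 and 9.83 in controls and 8.35, 8.30, 8.56 and 8.21 in knockouts, a difference of -1.31 ± 0.09. Control and knockout values of Olfr1471 were far apart in every title series.

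In all, 11 members fell by more than 1.5 on the log2 scale and another 26 by between 1 and 1.5, so that 37 members came down to less than 50% of their control signal. Another 8 differed by between -1 and -0.5, all of them called, and 9 by less than that, of which 3 were called.

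**Figure D3:**
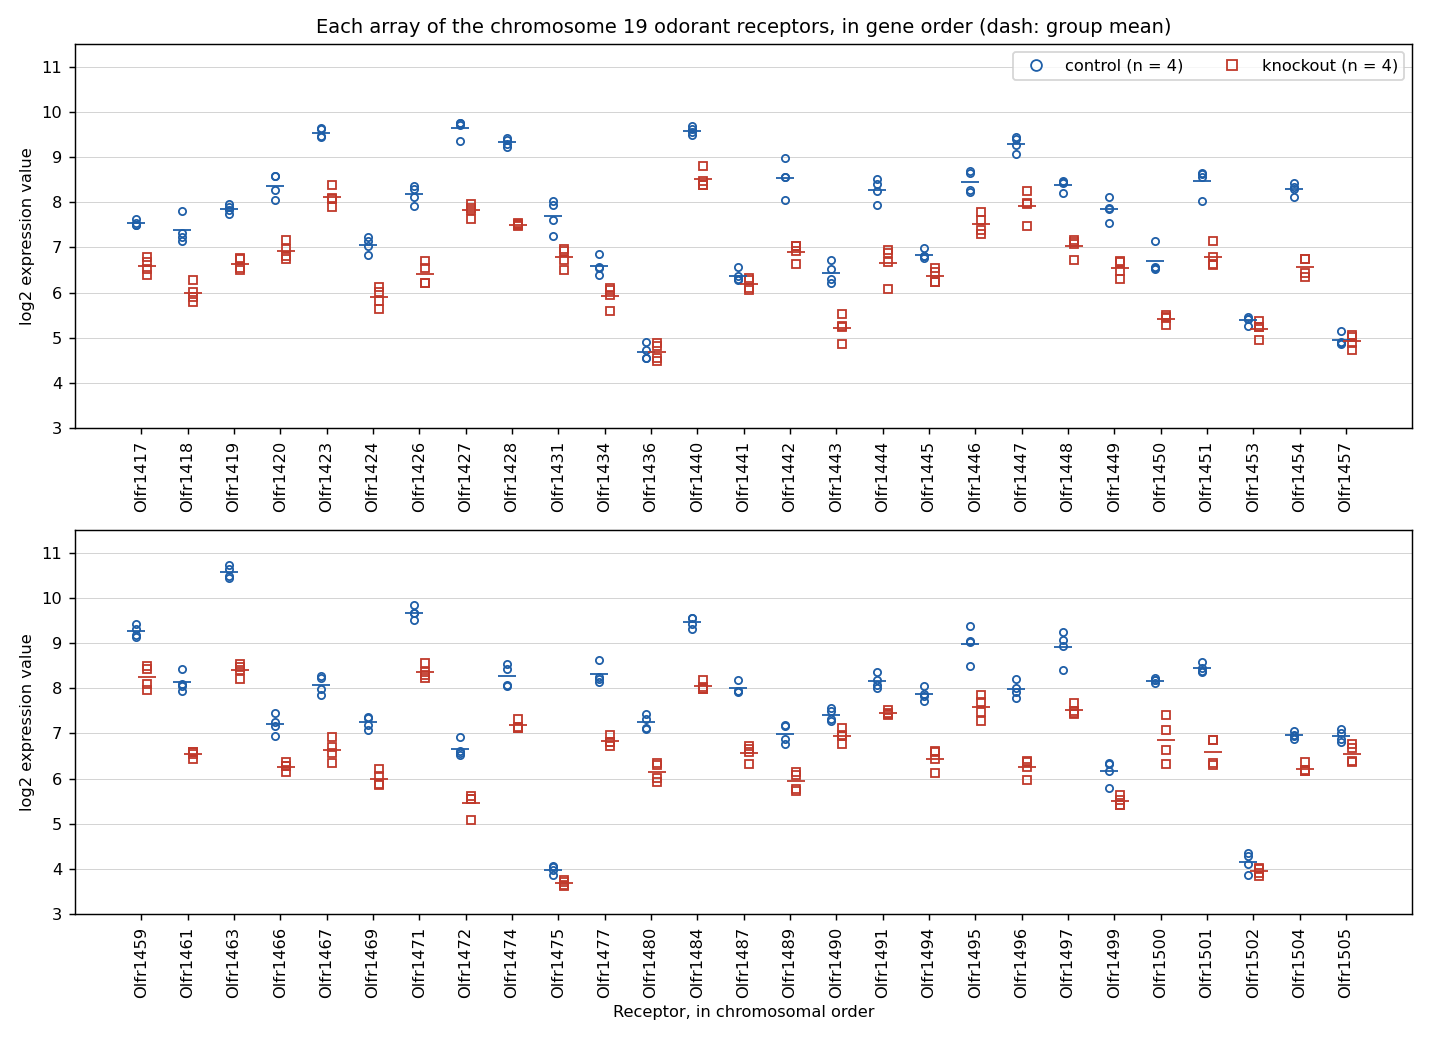
Log2 value of each of the 54 receptors on every array, in chromosomal order in 2 rows, with blue circles for the 4 controls, red squares for the 4 knockouts and dashes for group means. Knockouts lay below all controls in 49 receptors, while in Olfr1436, Olfr1441, Olfr1453, Olfr1457 and Olfr1502 the groups overlapped; heights of different receptors depend on their probes and are not comparable.

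Olfr1440, which the study also probed by in situ hybridization in tissue sections, changed by less than the typical member. It was at 9.54, 9.48, 9.61 and 9.69 in controls and 8.81, 8.47, 8.37 and 8.38 in knockouts. The difference was -1.07 ± 0.10 (adjusted p = 6.12e-05) or 52.5% lower, and knockout 1 stayed the highest of its group. Its closest neighbour of family MOR215, Olfr1441, was at 6.36, 6.29, 6.56 and 6.29 in controls and 6.11, 6.07, 6.32 and 6.27 in knockouts. Those groups overlapped, and its difference of -0.18 ± 0.09 was not called (adjusted p = 0.311).

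Among called receptors, the smallest decreases were those of Olfr1475, Olfr1490, Olfr1445 and Olfr1499. Olfr1475 was at 3.86, 4.07, 4.04 and 3.97 in controls and 3.62, 3.70, 3.65 and 3.76 in knockouts, near the low end of the array's signals in both. Its difference of -0.30 ± 0.07 had an adjusted p of 0.0174, and the call was lost without control 2 (adjusted p = 0.0545), without knockout 1 (0.0566) and with array median centring (0.0502). Olfr1490 was at 7.31, 7.27, 7.50 and 7.57 in controls and 7.12, 6.77, 6.93 and 6.97 in knockouts, a difference of -0.46 ± 0.09 (adjusted p = 0.0111). Its groups lay close together without overlapping. Olfr1445 was at 6.81, 6.80, 6.78 and 6.98 in controls and 6.46, 6.24, 6.55 and 6.24 in knockouts, a difference of -0.47 ± 0.09. Olfr1499 was at 6.35, 6.17, 5.79 and 6.33 in controls and 5.43, 5.43, 5.63 and 5.52 in knockouts, a difference of -0.66 ± 0.12. In Olfr1499, control 3 came close to the knockouts, and title series 7 alone gave only -0.16.

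Of the receptors that were not called, Olfr1436, Olfr1457, Olfr1502 and Olfr1453 had low signals in both genotypes. Olfr1436 was at 4.74, 4.56, 4.90 and 4.56 in controls and 4.83, 4.48, 4.88 and 4.56 in knockouts (adjusted p = 0.999). Olfr1457 was at 4.87, 4.91, 4.88 and 5.15 in controls and 5.01, 4.73, 4.89 and 5.07 in knockouts (adjusted p = 0.917). The groups of both covered the same range. Olfr1502 was at 3.86, 4.36, 4.10 and 4.29 in controls and 3.85, 4.01, 4.02 and 3.92 in knockouts, and Olfr1453 at 5.42, 5.47, 5.41 and 5.27 in controls and 5.37, 5.24, 5.23 and 4.96 in knockouts. Their differences of -0.21 (adjusted p = 0.356) and -0.19 (adjusted p = 0.298) were within the overlap of the groups. Across the 54, 13 had a control mean below 6.94, the lower quartile of all clusters, among them all 6 that were not called, Olfr1505 by a small margin. How far low signal limits a fold change there was not tested.

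Clusters that carry several of these symbols gave other values for some of the same receptors. The cluster named for both Olfr1502 and Olfr1505 had a difference of -0.56 (adjusted p = 0.00607), although neither receptor's own cluster was called. The cluster named for Olfr1436, Olfr235, Olfr1434, Olfr1431 and Olfr1437 had a difference of -1.42, and the one named for Olfr1424, Olfr1425 and Olfr1426 of -1.52. Olfr1506 was named only in clusters shared with Olfr1274 and Olfr1565, where the difference was -1.22. The receptor or receptors behind a shared cluster cannot be told apart.

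The receptors left out by the rule lie in the same stretch. Olfr1462 was at 4.98, 5.09, 5.08 and 5.05 in controls and 5.04, 5.05, 5.12 and 5.01 in knockouts, a difference of 0.00 ± 0.06. Olfr1465 was at 5.92, 5.99, 6.32 and 6.08 in controls and 6.23, 6.35, 6.29 and 6.44 in knockouts, a difference of 0.25 ± 0.09 (adjusted p = 0.171). Its groups overlapped through control 3, and it was called higher without that mouse (0.33, adjusted p = 0.0257). The study's increases were found on values rescaled to mature OSN mRNAs, unlike these. Centred on the mature OSN markers, the differences were 0.63 for Olfr1462 (limma adjusted p = 7.81e-06) and 0.88 for Olfr1465 (1.39e-05). On that scale 93.7% of all clusters tested were called higher. Olfr1463, with the largest decrease of all, and Olfr1466 lie on either side of Olfr1465. ORs of the same chromosome with other numbers also had a range of differences: -1.64 for Olfr235 (adjusted p = 1.02e-06), -0.79 for Olfr76 (adjusted p = 0.000652) and -0.05 for Olfr262 (adjusted p = 0.796).

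By family, taken from the MOR numbers that RefSeq lists as synonyms, at least 1 receptor fell in every family. The largest, MOR202, had 28 members, of which 26 were called lower with a median difference of -1.29, and its values ran from -0.03 to -2.17. All 8 members of MOR266 were called lower (median -1.29), as were all 5 of MOR239 (median -1.76), all 4 of MOR212 (median -1.35) and the single MOR127. MOR266 lies in 2 separate places, Olfr1417 to Olfr1420 at the start of the cluster and Olfr1490 to Olfr1495 further along. The smallest decreases were in MOR214 (2 of 3 called, median -0.66), MOR215 (1 of 2) and MOR211 (1 of 3, median -0.39). Genes of a family are not replicates, so these medians are descriptions.

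**Figure D4:**
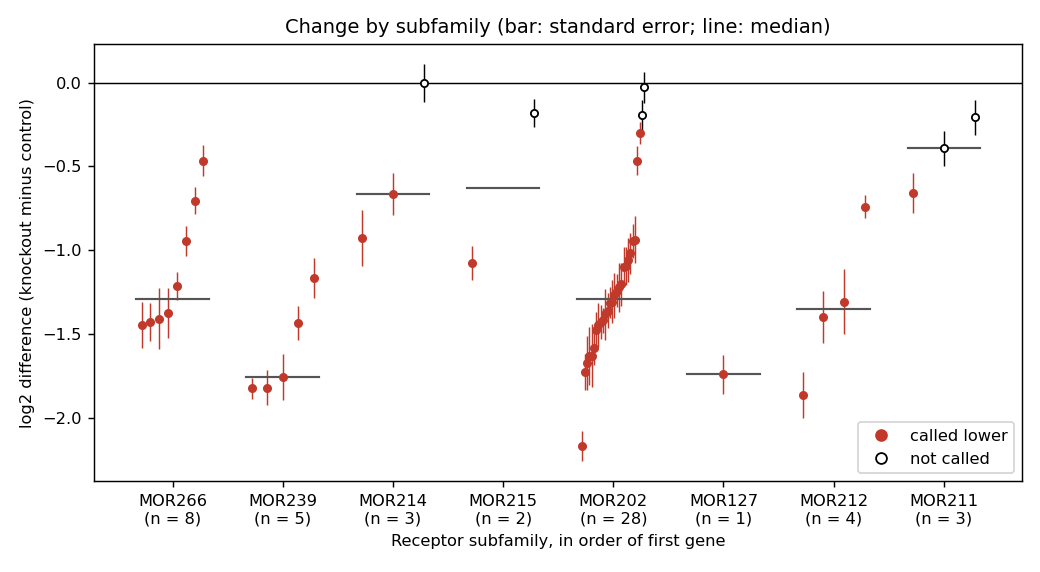
Log2 difference, knockout minus control, of each receptor by MOR family (horizontal axis, families in order of their first gene), with bars for the standard error and grey lines for family medians. The 5 MOR239 receptors lie between -1.16 and -1.82, whereas MOR202 spans -0.03 to -2.17.

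Receptors with nearly the same coding start could differ in how far they fell. In Olfr1463 and Olfr1466, which share 47 of the 50 bases printed above, the differences were -2.17 and -0.94. The gap between their signals on 1 array was 3.19 to 3.54 in controls and 1.94 to 2.32 in knockouts, with no overlap. Olfr1472 and Olfr1475 share 49 bases and had differences of -1.20 and -0.30, and the gap went from between 2.46 and 2.88 in controls to between 1.44 and 1.92 in knockouts. Olfr1475 was near the low end of the signals throughout. In Olfr1501 and Olfr1504, with 49 bases shared, the differences were -1.86 and -0.74, and the gap was 1.39 to 1.66 in controls and from -0.07 to 0.68 in knockouts. Olfr1446 and Olfr1447 had all 50 bases in common, with differences of -0.94 and -1.38. In these pairs the member that fell less also had the lower control signal, for example 7.21 in Olfr1466 against 10.57 in Olfr1463. Among the 11 close pairs, only Olfr1417 and Olfr1418 went the other way (control means of 7.54 and 7.38). Over all members the Spearman correlation of control signal with log2 difference was -0.71, and over the other ORs -0.49. The part of signal level in these differences was not tested. Across the 11 pairs, the gap did not overlap between genotypes in 8. It did in Olfr1471 with Olfr1474, Olfr1480 with Olfr1487, and Olfr1502 with Olfr1505. The pairs were chosen with the values known, so no test was made. The same count was not made over other member pairs, so whether 8 of 11 is unusual cannot be told.

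Homeodomain motifs were common in the windows, in receptors with large and with small decreases. Each window spans 250 bases before and 50 after the modelled start, and since 45 of 52 models start at the coding sequence, most windows are not the promoter itself. TAATNA, searched on both strands, was in 36 of the 52 windows (69.2%), against 65.9% of 944 OR windows and 26.5% of all 32851 windows. The median log2 difference was -1.24 for members with it and -1.26 for those without. TAATTA, a subset of TAATNA, was in 12 windows (23.1%), against 18.6% of OR windows and 5.29% of all windows, with medians of -1.18 with it and -1.29 without. The 12 included both Olfr1501, with a difference of -1.86, and Olfr1436, which did not pass the test. CCCNNGGG, a core of the O/E motif, was in 1 window, that of Olfr1443 (-1.22), or 1.92%, against 3.07% of OR windows and 13.7% of all windows.

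Genes known to act in OR gene choice or OR trafficking changed less than the receptors. From a list of 20 such genes, all measured, 8 were called lower and 0 higher, with a median difference of -0.16, and 2.1% of all clusters tested were called higher and 6.29% lower. Of the 8, 5 (Adcy3, Ric8b, Rtp1, Rtp2 and Gnal) are also on the list of mature OSN markers, all of whose measured genes were called lower, and among the other 15 genes 3 were called lower (Lhx2, Ebf3 and Atf5). Adcy3, the adenylyl cyclase of olfactory transduction that also takes part in stabilizing OR choice, fell by 0.98. Ric8b, a chaperone of the olfactory G protein, fell by 0.53, and Atf5, a transcription factor of the stress pathway that OR protein triggers, by 0.43. Rtp2 and Rtp1, which carry OR proteins to the cell surface, fell by 0.42 and 0.33. Lhx2 itself, Ebf3 and Gnal, the olfactory G protein subunit, completed the 8 with changes of -0.25, -0.22 and -0.21. Ldb1, the partner of Lhx2 in binding OR enhancers, differed by -0.11 (adjusted p = 0.316), and Emx2, another homeodomain factor of OSNs, by 0.17 (adjusted p = 0.203). Lsd1 (Kdm1a), which removes histone methylation at the onset of OR choice, differed by 0.11 (adjusted p = 0.381). With arrays centred on the mature OSN markers, which include those 5 genes, 1 of the 20 was called lower and 18 were called higher, where 93.7% of all clusters were. Without control 1 only 4 of the 20 were called lower, without control 2, control 4, knockout 1, knockout 2 or knockout 4 there were 5, and without control 3 or knockout 3 there were 6.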

How the data were processed

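Olfactory mucosa of 8 mice was measured on Affymetrix Mouse Gene 1.0 ST arrays from equal amounts of total RNA. The deposited values are log2 expression values, 1 per transcript cluster, that the authors made with Affymetrix Expression Console by combining all exon signals of a gene. The version, background correction and normalization are not given in the sources read. The values, 2.35 to 14.6, were taken as deposited. Arrays give no counts, so the number of arrays limits the precision.

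Of 35557 clusters, 21789 had 1 symbol, 1621 several and 12147 none. Symbols came from the platform annotation and were updated by Entrez ID (RefSeq, GRCm38.p6). The 23410 named clusters were fitted without covariates in limma (version 3.58.1, lmFit and eBayes, under R 4.3.3), p-values were adjusted by Benjamini-Hochberg, and clusters were called at an adjusted p under 0.05. All adjusted p-values are from this fit, and ± is its standard error. P-values weigh each difference against the spread between single mice, with each cluster's variance moderated by eBayes toward that of all clusters fitted. Groups came from the phenotype in the labels, and replicate numbers only name mice. Scripts were tested on simulated data. Gene order, MOR families, promoter windows and coding starts came from RefSeq. The planned grouping by protein identity was replaced by MOR families after the files were seen.

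Named with every array are Lhx2, Omp, Olfr1440, the 8 called members with the largest decrease, the 4 with the smallest, the 4 lowest p among those not called, the 3 highest and 3 lowest signals, the first and last member and both receptors left out. Other genes named with every array were chosen after their values were seen. The members and lists were chosen with earlier results of these data known. Alternatives were array median centring, quantile normalization, centring on mature OSN markers, a minimum mean of 5, testing all clusters, title series as a block, array weights, the methods' t-test, other member sets and leaving out each mouse. The t-test was run without the study's rescaling to mature OSN mRNAs. Figures were drawn with matplotlib 3.10.9.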

Additional observations from a re-analysis of the deposited data

Results flagged for a closer look

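In 9 of the 110 groups of 4 arrays examined, 1 array stood apart from the other 3 by Dixon's criterion, and chance flags about 1 in 20 groups. Among controls, control 2 was lowest for Olfr1427 (9.36, the next 9.71) and for Olfr1451 (8.03, the next 8.55). Control 4 was highest for Olfr1445 (6.98), Olfr1450 (7.14) and Olfr1457 (5.15), and control 3 for Olfr1487 (8.19). Among knockouts, knockout 3 was lowest for Olfr1472 (5.09), knockout 4 was highest for Olfr1474 (7.32) and knockout 1 was highest for Olfr1484 (8.17). Except for Olfr1457, which was not called, each of these receptors was called lower whichever mouse was left out.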

How the results depend on the processing

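Leaving out each mouse in turn, between 47 and 49 receptors were called lower, the median difference ran from -1.30 to -1.22 and the mean from -1.17 to -1.11, and 47 receptors were called in all 8 such fits. Olfr1505 was called lower with quantile normalization (adjusted p = 0.0159), the dim-signal minimum (0.0499), title series as a block (0.0199), array weights (0.0143) and without knockout 4 (0.0307). The minimum moved the mean difference to -1.22. Centred on the mature OSN markers, 6 receptors were called higher, the median was -0.63 and the mean -0.51. The signs of Olfr1436 (0.63), Olfr1441 (0.45), Olfr1445 (0.16), Olfr1453 (0.44), Olfr1457 (0.60), Olfr1475 (0.33), Olfr1490 (0.16), Olfr1502 (0.42), Olfr1505 (0.24) and Lhx2 (0.38) turned there, since that centring subtracts the markers' own decrease. Of the 20 OR choice genes, 5 were called lower with array median centring, 1 with OSN centring, 5 with all clusters tested, 4 by the t-test and 4 to 6 without single mice. Called higher were 1 (Emx2) with array median centring, 18 with OSN centring and 1 (Cbx5) with array weights. Of the non-receptor neighbours 1, Tle4, was called higher with array median centring, quantile normalization and array weights, 20 with OSN centring, and 0 to 1 without single mice. The causes of the other moves were not tested. No paired analysis was possible because the labels give no replicate numbers that pair single mice. With the title series as a block, 49 receptors were called lower and 0 higher. The grouping by protein identity was not run.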
